A study of Arabidopsis thaliana with 30 samples.

Results

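The evening clock genes are 9 Arabidopsis thaliana genes chosen by identity: PRR5 (AT5G24470), TOC1 (AT5G61380), GI (AT1G22770), LUX (AT3G46640), BOA (AT5G59570), ELF3 (AT2G25930), ELF4 (AT2G40080), FKF1 (AT1G68050) and ZTL (AT5G57360). All 9 were among the 33602 genes of the count table, and all 9 passed the filter on low counts that 21472 genes passed. RNA was sequenced from petiole regions of the 4th rosette leaf, excised from plants 21 days old, floated under continuous white light at 22 °C, and collected at excision (0 h) or 24, 48, 72 or 96 h later. The plants had grown in soil under long-day cycles of light and dark, in brighter light than the excised leaves received. Each comparison against 0 h therefore holds both excision and the move to dimmer constant light, and these cannot be told apart. Both genotypes carry the reporter ORE1::LUC in Col. WT is that reporter line itself, and eur1-11 is one chemically induced allele of EAR1 in it. EAR1 is known to dampen responses to the hormone abscisic acid. The 30 libraries fall into 10 groups of 3, and each library had 22482318 to 43243161 counts on genes. The labels do not say whether replicates were separate plants, so p-values speak only of the spread among the libraries sequenced, which may be technical.

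The plant circadian clock is a set of regulators that repress or activate each other in turn over the day. In the morning the MYB-related factors CCA1 and LHY repress genes that peak later, many of them through a promoter sequence called the evening element. Toward dusk the pseudo-response regulators PRR5 and TOC1 repress the morning genes, and ELF3, ELF4 and LUX assemble into the evening complex, a repressor active at night in which BOA is a paralog of LUX. FKF1 and ZTL are blue light receptors with an F-box that mark clock and flowering proteins for degradation, and GI binds both. Because the samples lie 24 h apart in constant light, a gene with a stable rhythm of that length would return to 1 level at every sampling. The clock time of harvest is not given in the sources used here.

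Since the evening element links these genes to the morning repressors, their promoters were searched for it. The letters AAAATATCT were present on either strand in the 500 bases before the annotated start of 5 members, PRR5, TOC1, LUX, BOA and FKF1, and in 4.44% of 27443 promoters of that length. PRR5 and FKF1 held 2 copies each, and none was found in that window of GI, ELF3, ELF4 and ZTL. The copies are shown 5′ to 3′ on the strand of the gene, from the RefSeq assembly TAIR10.1, with the element or its reverse complement in capitals. The gene model of PRR5 starts at its start of translation.
PRR5 distal copy, chr5:8358820-8358848, minus strand: caattctactAGATATTTTttcaaatcca
PRR5 proximal copy, chr5:8358715-8358743, minus strand: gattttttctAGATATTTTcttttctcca
TOC1, chr5:24674776-24674856, plus strand: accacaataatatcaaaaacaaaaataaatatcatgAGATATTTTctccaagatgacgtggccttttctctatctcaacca
LUX, chr3:17182953-17183033, plus strand: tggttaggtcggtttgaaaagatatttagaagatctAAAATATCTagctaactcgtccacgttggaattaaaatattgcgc
BOA, chr5:24003809-24003887, plus strand: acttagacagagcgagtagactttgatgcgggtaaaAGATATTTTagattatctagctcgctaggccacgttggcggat
FKF1 distal copy, chr1:25508230-25508310, plus strand: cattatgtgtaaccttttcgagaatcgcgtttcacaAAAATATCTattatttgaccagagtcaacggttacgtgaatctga
FKF1 proximal copy, chr1:25508417-25508497, plus strand: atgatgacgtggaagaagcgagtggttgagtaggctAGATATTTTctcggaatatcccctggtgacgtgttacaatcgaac
The element began 43 bases before the start of BOA and 53 before that of LUX. It began 151 bases before the start of TOC1, 186 and 373 before that of FKF1, and 187 and 292 before that of PRR5.

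Other clock sequences were searched on both strands of the same windows. The LUX-binding letters GATACG or GATTCG were in TOC1, LUX, ELF3 and ELF4 and in 22.6% of all promoters. The CCA1-binding letters AAAAATCT or AACAATCT were in PRR5 and ELF3 and in 15.9% of all promoters, and the G-box CACGTG was in LUX and BOA and in 9.35%. No copy of one motif overlapped a copy of another in the members. A match describes the letters and is no evidence of binding.

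The members differed widely in depth. GI gave 999 to 4343 reads in a library, TOC1 564 to 2450 and ZTL 385 to 1710, whereas BOA gave 33 to 256, FKF1 10 to 195 and ELF4 1 to 37. LUX shares 698 exon bases with AT3G46650 and BOA shares 1679 with AT5G59580, each on the opposite strand. Strand use and annotation in counting are not given in the sources used here. Whether reads in the shared parts were counted by strand or left out as ambiguous is therefore not known. AT3G46650 had a mean of 2.77 CPM (reads scaled to library size by the trimmed mean of M values, TMM) in WT at 0 h and 0.178 at 24 h, while AT5G59580 had 1.3 and 3.06 CPM.

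The sign of many changes after excision depends on how libraries are scaled. Chloroplast transcripts held 55.8 to 62.9% of gene counts at 0 h and 18.7 to 26.5% at 96 h. The median log2 fold change of all tested genes against 0 h was 0.07 to 0.16 with TMM and 1.08 to 1.76 with scaling by total counts, and 0.57 to 0.74 with scaling by the total of nuclear genes alone. Relative to that median, a member's change differed by at most 0.067 on the log2 scale between the 5 scalings tried. All 47 member changes called against 0 h kept their sign relative to the median gene under these scalings. A scaling shifts all genes nearly alike, so this was fixed in advance and is no test of the calls. "Higher" and "lower" against 0 h are meant relative to the median gene, whereas the adjusted p tests the TMM-scaled change against 0. Fewer cells of a type and less RNA per cell cannot be told apart in such bulk samples.

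Cell markers moved over the same times. The summed level of 4 markers of photosynthetic leaf cells was 29950 to 37560 CPM at 0 h and 1819 to 9233 CPM later, and that of 3 epidermis markers was 65.4 to 102 and 6.74 to 32.5 CPM. ATML1, at 6.62 to 96.8 CPM over all libraries, made up most of the epidermis sum. PDF1 and CER1 reached at most 2.48 and 2.54 CPM, and 2 of the 3 epidermis genes could be tested. The phloem list was at 259 to 354 CPM at 0 h and 159 to 273 CPM later, with 2 of 3 genes called lower in WT at 48 h, but 1 higher and 1 lower at 24 h. The guard cell list was at 21.5 to 29.1 and 13.3 to 22.3 CPM, with 2 of 3 called lower in WT at 48 h. The xylem list was at 63 to 84 and 20.1 to 118 CPM, with 1 of 3 called lower in WT at 48 h and 0 of 3 called at 24, 72 and 96 h. A list of 5 root genes went from 6.26 to 8.58 CPM at 0 h to 612 to 696 CPM at 96 h, and all 3 that could be tested, PYK10, SHR and MYB36, were called higher in WT at 48, 72 and 96 h (in eur1-11, 2, 3 and 2 of them). PYK10, a beta-glucosidase of roots, made up most of that sum, SHR ranged from 5.38 to 16.9 CPM over all libraries, MYB36 from 0 to 0.588 CPM, and WOX5 and PLT1 reached at most 0.0628 and 0.094 CPM. Against 0 h, 34.3 to 38.1% of all genes were called higher and 30.8 to 32.1% lower, so the numbers of markers called are no result. The part of these shifts in the members' changes was not tested.

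**Figure D1:**
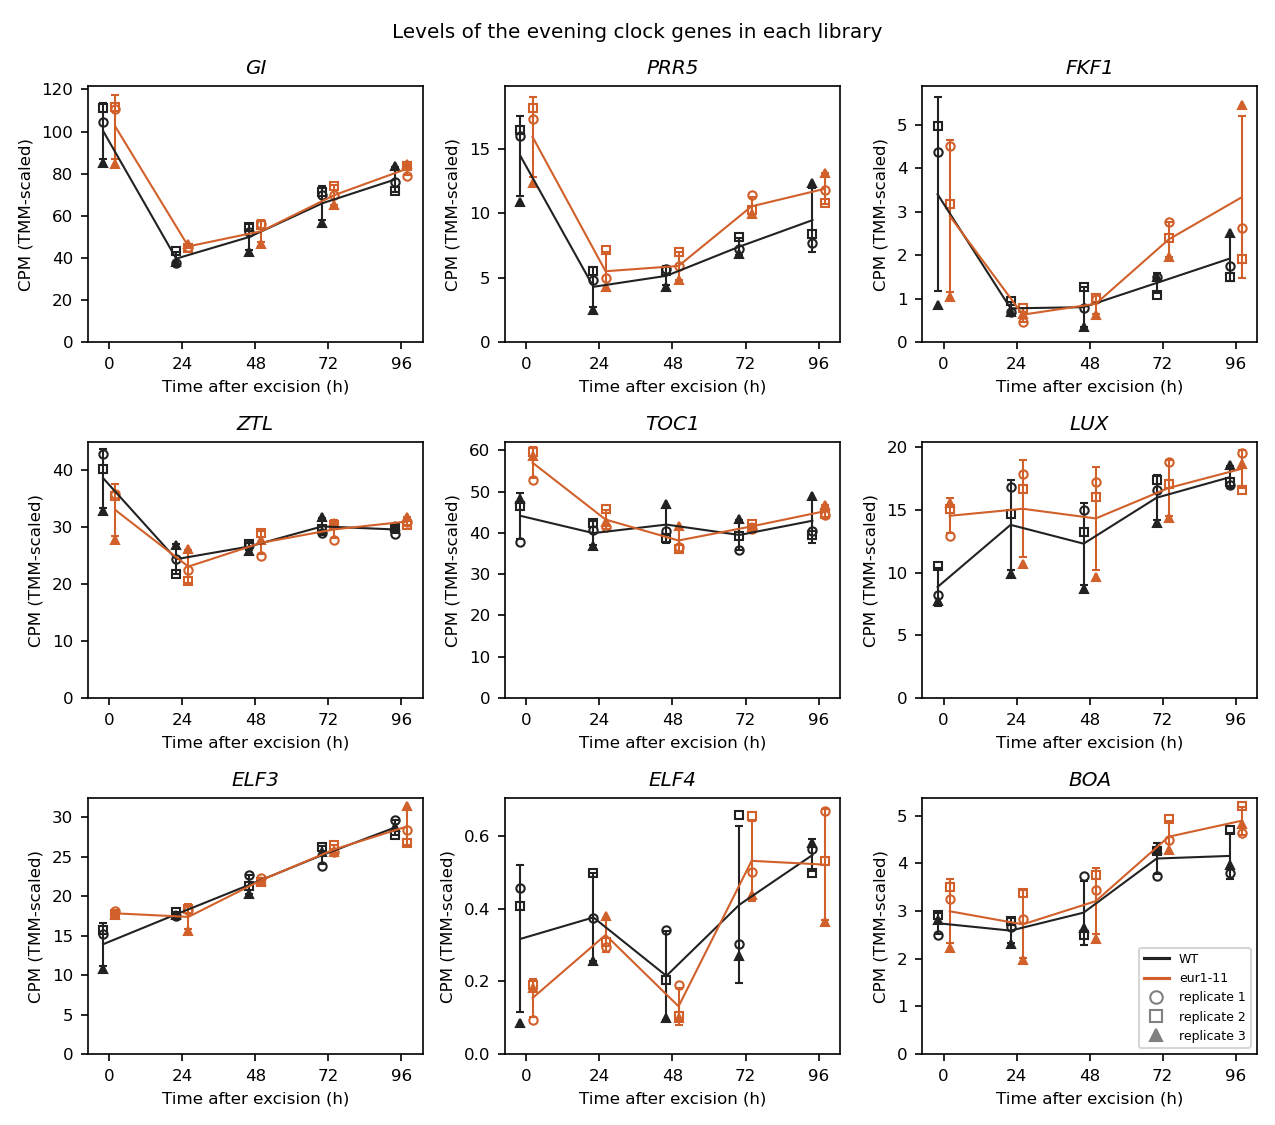
Level of each evening clock gene in CPM (TMM-scaled, linear axis from 0) against hours after excision, with every library as a point shaped by its replicate number, lines through the group means and bars of 1 SD (n = 3). By group mean GI, PRR5 and FKF1 are lowest at 24 h in both genotypes and ELF3 in WT goes from 13.9 CPM at 0 h to 28.7 CPM at 96 h, but with scaling by total counts GI lies above its 0 h level from 48 h on.

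The first comparison asks how each member stood after excision against 0 h. GI, PRR5, FKF1 and ZTL were lower at 24 h in both genotypes, ELF3 and LUX were higher in WT, and TOC1 was lower in eur1-11. Libraries of equal replicate number shared deviations between the genotypes at a time (mean r = 0.518). The same change in both genotypes is therefore not independent evidence. In WT there were 4 lower and 2 higher of 9 members at 24 h, beside 32.1% and 35.9% of all tested genes. The counts were 4 lower and 2 higher at 48 h (31.3% and 37.6% of genes), 4 lower and 3 higher at 72 h (30.9% and 37.0%) and 3 lower and 3 higher at 96 h (30.8% and 38.1%). In eur1-11 they were 5 lower and 0 higher at 24 h (31.7% and 34.6%), 5 lower and 1 higher at 48 h (31.3% and 34.8%), 3 lower and 3 higher at 72 h (31.5% and 34.3%) and 2 lower and 3 higher at 96 h (31.6% and 36.4%). Most genes passed the test in each of these comparisons, so the number of called members is no result about them. Calls are from edgeR's quasi-likelihood test with a Benjamini-Hochberg adjusted p under 0.05 over all tested genes, and the comparisons of a genotype share its 0 h libraries. Without replicate 3 the eur1-11 counts were 5 lower and 4 higher at 72 h, and 5 and 4 at 96 h. The shares of all genes called in that fit are not given here.

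GI, a large plant protein that binds FKF1 and ZTL, was lower than at 0 h at all 4 later times in both genotypes, with the lowest levels at 24 h. In WT its levels were 104, 111 and 85.2 CPM at 0 h and 37.6, 43.2 and 38.1 CPM at 24 h. They were 52, 54.7 and 43 CPM at 48 h, 69.7, 71.3 and 56.6 CPM at 72 h and 76, 72 and 83.8 CPM at 96 h. Every later WT library lay below every 0 h library. On the log2 scale GI fell by 1.33 ± 0.11 (SE) at 24 h, which was -1.40 relative to the median gene (edgeR adjusted p = 6.01e-10). It fell by 1.01, 0.60 and 0.36 at 48, 72 and 96 h, the last with an edgeR adjusted p of 0.00394. The 96 h call was lost without replicate 1 or 2 of all groups (0.107 and 0.193) and with upper-quartile scaling (0.0671).

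In eur1-11, GI stood at 111, 112 and 84.7 CPM at 0 h, 45, 44.9 and 46.4 CPM at 24 h, 56, 55.5 and 46.5 CPM at 48 h, 70.0, 74.3 and 65.1 CPM at 72 h and 78.7, 83.8 and 84.7 CPM at 96 h. The libraries of 24 to 72 h lay clearly below those of 0 h, and the highest library of 96 h came level with the lowest of 0 h. GI fell by 1.16 ± 0.10 (SE) at 24 h and by 0.30 ± 0.10 at 96 h (adjusted p by edgeR 4.5e-09 and 0.0132). The 96 h call was lost without replicate 1 or 2 of eur1-11 at 0 h or at 96 h (adjusted p 0.0504 to 0.0666), without either replicate number in all groups (0.283 and 0.173), and with upper-quartile scaling (0.27).

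PRR5, a repressor of CCA1 and LHY, also had its lowest mean at 24 h in both genotypes. In WT its levels were 16, 16.5 and 10.9 CPM at 0 h, 4.82, 5.54 and 2.52 CPM at 24 h and 5.66, 5.49 and 4.3 CPM at 48 h. They were 7.22, 8.18 and 6.85 CPM at 72 h and 7.7, 8.39 and 12.3 CPM at 96 h. Every library of 24 to 72 h lay below every 0 h library, and at 96 h replicate 3 overlapped with 0 h. PRR5 fell by 1.77 ± 0.23 (SE) at 24 h, or -1.84 relative to the median gene, and by 0.57 ± 0.22 at 96 h (adjusted p by edgeR 6.63e-07 and 0.0258). The 96 h call was lost without replicate 1 or 2 of WT at 0 h or at 96 h (adjusted p 0.0714 to 0.153), without either number in all groups (0.383 and 0.267), and with upper-quartile scaling (0.0802).

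In eur1-11, PRR5 stood at 17.3, 18.2 and 12.4 CPM at 0 h, 5.02, 7.19 and 4.3 CPM at 24 h, 5.92, 7 and 4.84 CPM at 48 h, 11.4, 10.3 and 9.98 CPM at 72 h and 11.8, 10.8 and 13.2 CPM at 96 h. Only the 96 h group overlapped with 0 h. It fell by 1.53 ± 0.22 (SE) at 24 h and by 0.58 ± 0.21 at 72 h (adjusted p by edgeR 3.67e-06 and 0.0218), and its value of -0.40 at 96 h was not called (0.107). The 72 h call was lost without replicate 1 or 2 of 0 h or replicate 2 of 72 h (adjusted p 0.0619 to 0.0942), and the 96 h value was called without replicate 3 of 96 h (0.0352). Without replicate 3 of all groups the 96 h value was -0.65 and was called (edgeR adjusted p = 7.47e-05). The 72 h call was also lost without replicate 1 or 2 of all groups (0.155 and 0.18) and with upper-quartile scaling (0.0949).

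FKF1, the receptor that times flowering, had a wide spread at 0 h. Its 0 h levels were 4.38, 4.97 and 0.852 CPM in WT and 4.5, 3.17 and 1.03 CPM in eur1-11, replicate 3 being the lowest in both. At 24 h they were 0.689, 0.933 and 0.703 CPM in WT and 0.464, 0.783 and 0.644 CPM in eur1-11. In WT replicate 2 of 24 h lay above replicate 3 of 0 h, and in eur1-11 the groups did not overlap. FKF1 fell by 2.10 ± 0.55 (SE) in WT and by 2.13 ± 0.55 in eur1-11 at 24 h (adjusted p by edgeR 0.00182 and 0.00189), and without replicate 1 of all groups neither was called (0.0827 and 0.135).

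From 72 h on the level of FKF1 lay closer to that of 0 h in both genotypes, whereas in WT its 48 h level was near that of 24 h. At 48 h it was 0.789, 1.28 and 0.344 CPM in WT and 1, 1.02 and 0.615 CPM in eur1-11, and at 72 h 1.5, 1.09 and 1.49 and 2.75, 2.39 and 1.95 CPM. At 96 h they were 1.76, 1.49 and 2.5 CPM in WT and 2.63, 1.92 and 5.45 CPM in eur1-11, so that both groups overlapped with 0 h. In eur1-11 the 48 h group still lay below 0 h without overlap. FKF1 fell at 48 h by 2.08 in WT and 1.71 in eur1-11 and at 72 h in WT by 1.28 (edgeR adjusted p = 0.00172, 0.00676 and 0.0336). The log2 values of -0.76 in WT and 0.29 in eur1-11 at 96 h and -0.27 in eur1-11 at 72 h were not called. Without replicate 3 of all groups the eur1-11 value at 96 h turned to -0.75 and was called (edgeR adjusted p = 0.0109). The WT value at 96 h was then -1.52 and was called too (4.95e-05), as it was without replicate 3 of WT at 0 h alone (0.0354). The 72 h call in WT was lost without replicate 1 or 2 of 0 h or of 72 h (adjusted p 0.0753 to 0.166), and the 48 h call in eur1-11 without replicate 1 of 0 h (0.0684). Without replicate 1 of all groups neither the 48 h calls (0.0635 in WT and 0.171 in eur1-11) nor the 72 h call (0.272) held. Without replicate 2 of all groups the 48 h call in eur1-11 (0.0552) and the 72 h call in WT (0.37) were lost, the latter also with upper-quartile scaling (0.0549), and without replicate 3 the 72 h value in eur1-11 was called (0.041).

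ZTL, the receptor that marks TOC1 and PRR5 for degradation, was lower by less. In WT its levels were 42.8, 40.1 and 32.8 CPM at 0 h, 24.5, 21.7 and 26.9 CPM at 24 h, 26.9, 27 and 25.9 CPM at 48 h, 29, 29.6 and 31.8 CPM at 72 h and 28.9, 29.8 and 30.1 CPM at 96 h. Every later WT library lay below every 0 h library. ZTL fell by 0.67 ± 0.11 (SE) at 24 h and by 0.39 ± 0.11 at 96 h (adjusted p by edgeR 2.03e-05 and 0.00424). Its 72 h call, at -0.36, was lost without replicate 1 of 0 h (adjusted p = 0.066). The 72 and 96 h calls were both lost without replicate 1 of all groups (0.211 and 0.152), without replicate 2 (0.105 and 0.0694) and with upper-quartile scaling (0.0774 and 0.0574).

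In eur1-11, ZTL went from 35.8, 35.4 and 27.8 CPM at 0 h to 22.5, 20.5 and 26.2 CPM at 24 h, groups that did not overlap. It stood at 25, 29 and 27.8 CPM at 48 h, 27.8, 30.4 and 30.7 CPM at 72 h and 31, 30.3 and 31.7 CPM at 96 h, which all overlapped with 0 h. ZTL fell by 0.52 ± 0.11 (SE) at 24 h and by 0.28 ± 0.11 at 48 h (adjusted p by edgeR 0.000346 and 0.0329). The values of -0.16 and -0.09 at 72 and 96 h were not called. The 48 h call was lost without replicate 1 or 2 of 0 h or replicate 1 or 3 of 48 h (adjusted p 0.0619 to 0.142), and the 72 h value was called without replicate 3 of 0 h (0.0236). Without replicate 2 of all groups the 24 h call (0.054) and the 48 h call (0.157) were lost, the latter also without replicate 1 (0.443), with upper-quartile scaling (0.379) and with no filter (0.0797). Without replicate 3 of all groups the 72 and 96 h values were called (0.00286 and 0.0197).

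TOC1, which represses CCA1 and LHY and is a target of ZTL, stayed nearly level in WT. Its WT levels were 37.8, 46.5 and 48.1 CPM at 0 h, 40.7, 42.4 and 36.8 CPM at 24 h and 40.4, 38.7 and 47 CPM at 48 h. They were 35.9, 39.3 and 43.2 CPM at 72 h and 40.4, 39.4 and 49 CPM at 96 h, and every group overlapped with 0 h. No WT change of TOC1 was called, with log2 values of -0.14, -0.07, -0.16 and -0.04 (edgeR adjusted p from 0.126 to 0.723), though the 72 h value was called without replicate 1 of 0 h (0.0468). With scaling by total counts these values were 0.97 to 1.57, while the median gene shifted by 1.08 to 1.76.

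In eur1-11 TOC1 was lower at all 4 later times than at 0 h. Its levels were 52.7, 59.6 and 58.6 CPM at 0 h, 41.4, 45.8 and 42.5 CPM at 24 h and 36.6, 36.2 and 41.6 CPM at 48 h. They were 41, 42.2 and 41.4 CPM at 72 h and 44.4, 44.5 and 46.9 CPM at 96 h, and every later library lay below every 0 h library. TOC1 fell by 0.40, 0.58, 0.45 and 0.33 at 24, 48, 72 and 96 h (SE 0.09 each, edgeR adjusted p from 8.87e-06 to 0.00263). The 96 h call was lost without replicate 2 of all groups (0.0717) and with upper-quartile scaling (0.0782).

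No gene of the evening complex was called lower at any time. ELF3, its scaffold, stood in WT at 15.2, 15.8 and 10.8 CPM at 0 h, 17.4, 18 and 17.7 CPM at 24 h and 22.7, 21.4 and 20.3 CPM at 48 h. It stood at 23.9, 26.2 and 25.6 CPM at 72 h and 29.7, 27.8 and 28.8 CPM at 96 h, and the libraries of each time lay above all those of the time before. ELF3 rose by 0.35, 0.62, 0.86 and 1.04 on the log2 scale at 24, 48, 72 and 96 h (SE 0.10 each, edgeR adjusted p = 0.00413 at 24 h and 7.94e-09 at 96 h). Without replicate 3 of WT at 0 h, the lowest library, the 24 h value was 0.19 and was not called (adjusted p = 0.0573).

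In eur1-11 ELF3 went from 18.1, 17.8 and 17.7 CPM at 0 h and 18.3, 18.4 and 15.6 CPM at 24 h, which overlapped, to 22.4, 21.8 and 22 CPM at 48 h, 25.6, 26.5 and 25.7 CPM at 72 h and 28.4, 26.8 and 31.4 CPM at 96 h. From 48 h on all libraries lay above those of 0 h. The log2 value at 24 h, -0.04, was not called, and ELF3 rose by 0.31, 0.54 and 0.70 at 48, 72 and 96 h (edgeR adjusted p = 0.009, 5e-05 and 1.98e-06). The 48 h call was lost without replicate 1 or 2 of all groups (0.109 and 0.0963).

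LUX, the part of the complex that binds DNA, was 8.25, 10.6 and 7.76 CPM at 0 h in WT. It was 16.9, 14.7 and 9.88 CPM at 24 h, 15, 13.3 and 8.67 CPM at 48 h, 16.6, 17.4 and 14 CPM at 72 h and 17, 17.2 and 18.6 CPM at 96 h. Replicate 3 overlapped with 0 h at 24 and 48 h, and from 72 h on the groups did not overlap. LUX rose by 0.63 ± 0.19 (SE) at 24 h and by 1.02 ± 0.19 at 96 h (adjusted p by edgeR 0.00549 and 6.18e-05), the 24 h call being lost without replicate 1 or 2 of all groups (0.15 and 0.0515). The 48 h value of 0.46 (adjusted p = 0.0348) was not called without the replicate block (0.0753), by DESeq2 (0.0716), or without replicate 1 or 3 of 0 h or replicate 1 or 2 of 48 h (0.0608 to 0.17), nor without replicate 1 or 2 of all groups (0.372 and 0.127).

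In eur1-11 the 0 h level of LUX was higher than in WT. Its levels were 12.9, 15.1 and 15.5 CPM at 0 h, 17.9, 16.7 and 10.7 CPM at 24 h, 17.2, 16.1 and 9.65 CPM at 48 h, 18.8, 17.1 and 14.3 CPM at 72 h and 19.6, 16.6 and 18.6 CPM at 96 h. The groups overlapped with 0 h up to 72 h, and at 96 h they did not. No eur1-11 change was called, with log2 values of 0.02, -0.06, 0.19 and 0.33 (edgeR adjusted p from 0.111 to 0.937). Without replicate 3 the values at 24, 72 and 96 h, 0.28, 0.34 and 0.36, were called (adjusted p = 0.0366, 0.011 and 0.00793), and the 96 h value was also called without replicate 3 of 0 h alone (0.0238) and with upper-quartile scaling (0.0192).

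BOA, the LUX paralog, was called higher at 72 and 96 h in both genotypes and at no earlier time. Its WT levels were 2.49, 2.93 and 2.81 CPM at 0 h, 2.66, 2.8 and 2.3 CPM at 24 h, 3.74, 2.51 and 2.65 CPM at 48 h, 3.73, 4.26 and 4.31 CPM at 72 h and 3.8, 4.7 and 3.96 CPM at 96 h. In eur1-11 they were 3.25, 3.5 and 2.23 CPM, 2.83, 3.37 and 1.96 CPM, 3.44, 3.76 and 2.42 CPM, 4.48, 4.92 and 4.27 CPM and 4.64, 5.21 and 4.83 CPM at these times. In both genotypes the groups of 24 and 48 h overlapped with 0 h, and those of 72 and 96 h lay above it. BOA rose in WT by 0.59 ± 0.18 (SE) at 72 h and 0.61 ± 0.18 at 96 h (adjusted p by edgeR 0.00636 and 0.00494). In eur1-11 it rose by 0.61 ± 0.17 and 0.71 ± 0.17 (edgeR adjusted p = 0.00367 and 0.000958). Both WT calls were lost without replicate 1 of all groups (0.0554 at 72 h and 0.0508 at 96 h) and without replicate 2 (0.0526 and 0.0698).

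ELF4, the small protein that joins ELF3 in the complex, rests on few reads. Its WT levels were 0.458, 0.408 and 0.0852 CPM at 0 h, 0.376, 0.498 and 0.256 CPM at 24 h, 0.343, 0.205 and 0.0982 CPM at 48 h, 0.303, 0.66 and 0.271 CPM at 72 h and 0.565, 0.498 and 0.581 CPM at 96 h. In eur1-11 they were 0.0927, 0.189 and 0.181 CPM, 0.295, 0.309 and 0.381 CPM, 0.191, 0.104 and 0.0992 CPM, 0.503, 0.655 and 0.439 CPM and 0.67, 0.532 and 0.363 CPM at these times. In WT only the 96 h group lay above 0 h without overlap, and in eur1-11 those of 24, 72 and 96 h did. In eur1-11 ELF4 rose by 1.79 ± 0.47 (SE) at 72 h and 1.76 ± 0.47 at 96 h (adjusted p by edgeR 0.00207 and 0.00239), and the 96 h call was lost without replicate 1 of all groups (0.0884). The WT values, 0.19, -0.66, 0.28 and 0.78, were not called. The 24 h value of 1.14 in eur1-11 had an adjusted p of 0.0511 and was called in 9 of the 30 fits that left out a single library, among them that without replicate 3 of eur1-11 at 0 h (0.0406), and with upper-quartile scaling (0.0322).

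**Figure D2:**
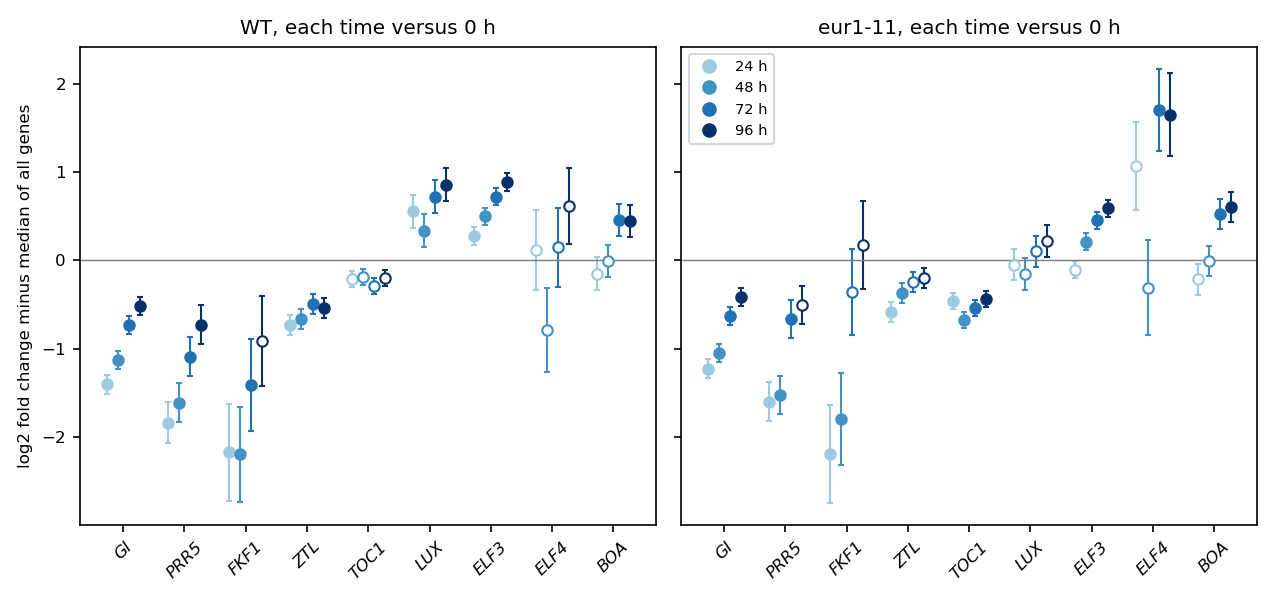
Log2 fold change of each member against 0 h minus the median log2 fold change of all tested genes, at 4 times in WT (left) and eur1-11 (right), with bars of 1 SE. Points are filled where edgeR's adjusted p was under 0.05 for the TMM-scaled change before the median is subtracted. GI, PRR5 and FKF1 lie lowest at 24 and 48 h and ELF3 climbs to 0.89 in WT and 0.59 in eur1-11 at 96 h, but before the median is subtracted, scaling by total counts turns most values below 0 to above 0, among them GI from 48 h, PRR5 and FKF1 from 72 h, and TOC1 and ZTL at all 4 times.

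The second comparison asks whether the members held 1 level from 24 h on. In WT, GI, PRR5, ELF3 and BOA differed among 24, 48, 72 and 96 h, which is 4 of 9 members beside 28.8% of genes (edgeR joint test, adjusted p = 3.19e-06, 0.00118, 9.07e-05 and 0.00561). In eur1-11 these genes and FKF1, ELF4 and ZTL did, which is 7 of 9 beside 29.9% (edgeR adjusted p from 1.21e-05 to 0.0231). All of them had a higher mean at 96 h than at 24 h. The ratio of the 96 h mean to the 24 h mean was 1.95 for GI, 2.21 for PRR5, 1.62 for ELF3 and 1.6 for BOA in WT, and 1.81, 2.16, 1.66 and 1.8 in eur1-11. FKF1 had ratios of 2.48 in WT and 5.28 in eur1-11, where it passed the test. TOC1 had ratios of 1.07 and 1.05 and was called in neither genotype (edgeR adjusted p = 0.666 and 0.156), nor was LUX (0.0764 and 0.277). DESeq2 did call LUX and ELF4 in WT, and without replicate 3 edgeR called TOC1 in eur1-11 (adjusted p = 0.0124). The counts of 4 and 7 members are therefore no result about a difference between the genotypes. The counts fell to 1 in WT and 2 in eur1-11 without replicate 1 and to 3 in eur1-11 without replicate 2, while the WT count was 7 without replicate 3 of eur1-11 at 0 h. The shares of all genes called in these leave-out fits are not given here.

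The third comparison sets eur1-11 against WT. The mutated gene EAR1 was at 262, 261 and 195 CPM in WT and 226, 222 and 105 CPM in eur1-11 at 0 h, and at 378, 377 and 368 and 324, 312 and 243 CPM at 24 h. As a mean over the 5 times it was lower in eur1-11, with a log2 value of -0.30 ± 0.07 (SE, edgeR adjusted p = 0.0133), and it was not called at any single time. For an allele made by chemical mutagenesis the level is no check of the label.

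At 0 h, LUX and TOC1 were higher in eur1-11, which is 2 of 9 members beside 2.08% of genes. LUX was at 12.9, 15.1 and 15.5 CPM in eur1-11 against 8.25, 10.6 and 7.76 CPM in WT, a log2 value of 0.73 ± 0.19 (SE) with an edgeR adjusted p of 0.0459. TOC1 was at 52.7, 59.6 and 58.6 CPM against 37.8, 46.5 and 48.1 CPM, a log2 value of 0.37 ± 0.09 with an edgeR adjusted p of 0.0344. The groups did not overlap in either gene. DESeq2 called both (adjusted p = 0.0241 and 0.0313). Without the replicate block neither was called (0.126 for LUX and 0.0748 for TOC1). Of 33 fits that each left out a replicate or a library, 22 did not call LUX and 6 did not call TOC1. LUX was lost without any single 0 h library except replicate 1 of eur1-11 (adjusted p 0.0563 to 0.267), and also without any one of 15 libraries of other times, where it stayed between 0.0512 and 0.057. TOC1 was lost without replicate 1 or 2 of WT or replicate 2 or 3 of eur1-11 at 0 h (0.0748 to 0.215). Without replicate 1 or 2 of all groups neither was called (0.329 to 0.5 for LUX and 0.459 to 0.5 for TOC1), and without replicate 3 both were (0.00668 and 0.0022).

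With the replicate number as a block within each time, 4 members were called at 0 h, beside 2266 of 21472 genes. These were LUX (adjusted p = 0.000327), TOC1 (0.00404), ELF3 with a log2 value of 0.36 (0.0239) and ZTL with -0.23 (0.0284). ELF3 was at 18.1, 17.8 and 17.7 CPM against 15.2, 15.8 and 10.8 CPM, without overlap, and ZTL at 35.8, 35.4 and 27.8 CPM against 42.8, 40.1 and 32.8 CPM, with overlap. The other members were not called with either block or without one at 0 h.

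At the later times edgeR called no member between genotypes, beside 0.331% of genes at 24 h, 0.340% at 48 h, 0.480% at 72 h and 0.517% at 96 h. DESeq2 called 0 as well. At an unadjusted p under 0.05, where the share of all genes is not given here, there was 1 member, PRR5 at 72 h, with 11.4, 10.3 and 9.98 CPM in eur1-11 and 7.22, 8.18 and 6.85 CPM in WT, and 0 members at 24, 48 and 96 h. The PRR5 groups did not overlap, and the log2 value was 0.52 ± 0.22 (SE, edgeR adjusted p = 0.693). The block within each time called it (0.0377). Without replicate 3, PRR5 was called at 72 and 96 h (adjusted p = 0.0135 and 0.011) and FKF1 at 72 h (0.0246).

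As a mean over the 5 times edgeR called no member, beside 5.71% of genes. Without adjustment 4 members had a p under 0.05, a threshold at which the share of all genes is not given here. PRR5 was at 0.31 ± 0.10 (SE) and LUX at 0.24 ± 0.08 as log2 values (edgeR adjusted p = 0.0682 and 0.0884). DESeq2 called PRR5 (0.0441). The block within each time called GI (0.0372), LUX (0.000689), PRR5 (0.00106) and TOC1 (0.0344), and the fit without replicate 3 called these and BOA, all higher in eur1-11. The shares of all genes called in these fits are not given here, so the number of members called is no result about them. PRR5 was also called without replicate 3 of WT at 96 h (0.00575), and LUX without that library, replicate 1 of eur1-11 at 0 h or its replicate 3 at 48 h (0.0463 to 0.0481).

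**Figure D3:**
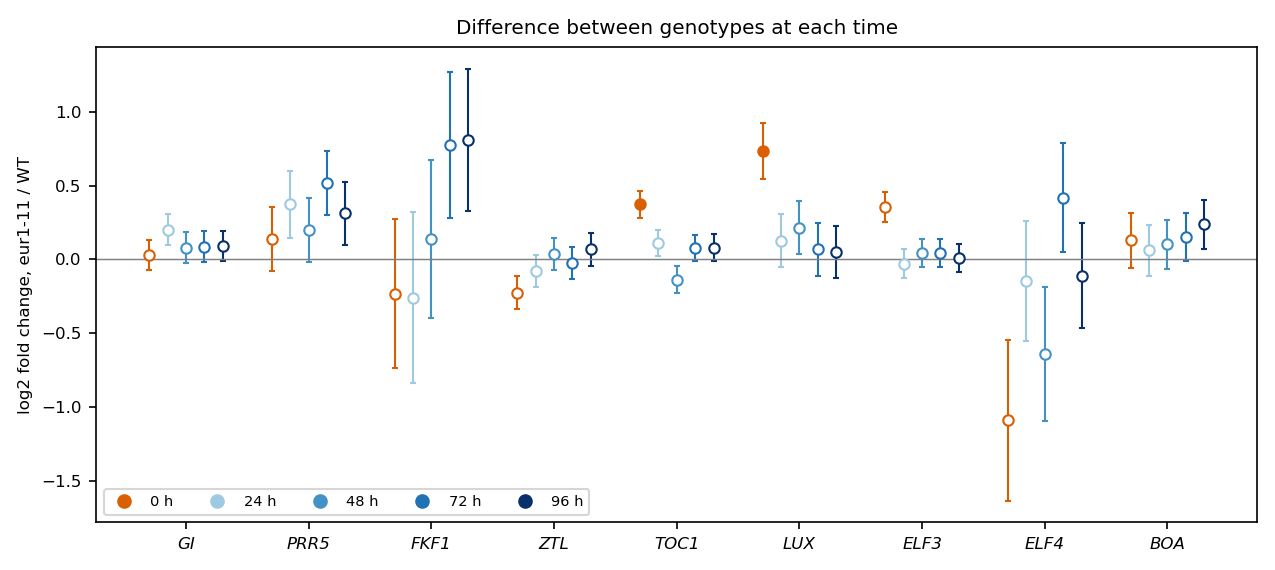
Log2 fold change of eur1-11 over WT for each member at each of the 5 times, with bars of 1 SE and filled points where edgeR's adjusted p was under 0.05. The filled points are LUX (0.73) and TOC1 (0.37) at 0 h, and PRR5 lies above 0 at all 5 times without passing the test of the main fit. With the replicate block within each time, edgeR called PRR5 at 72 h (adjusted p = 0.0377).

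Whether the course after excision differed between the genotypes was tested as an interaction. In the joint test over the 4 later times edgeR called 0 members and 0% of genes, while 1 member and 1286 genes had an unadjusted p under 0.05. That member was TOC1 (edgeR adjusted p = 0.607). DESeq2 called 0 members and 127 genes. At the single times edgeR and DESeq2 called 0 members, and edgeR called 0% of genes at 24 h, 0% at 48 h, 0.0140% at 72 h and 0.0792% at 96 h. At an unadjusted p under 0.05 there were 2, 2, 4 and 3 members. The shares of all genes at that looser threshold are not given here, so these counts are no result about the members. At 48 h the change of TOC1 from 0 h had a difference of -0.51 ± 0.13 (SE) between eur1-11 and WT (edgeR adjusted p = 0.164). Without replicate 3 the joint test called TOC1 (adjusted p = 0.0301) beside 2680 of 21542 genes. The calls of LUX in WT and of TOC1 in eur1-11 against 0 h therefore do not show that the genotypes differed in their course.

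Replicate 3 stood apart in several members. Over all groups it was lower than replicates 1 and 2 in GI, with a log2 value of -0.15 ± 0.05 (SE), and in LUX, with -0.33 ± 0.09 (edgeR adjusted p = 0.04 and 0.0116). So 2 of 9 members were lower and 0 higher, beside 6.38% and 9.16% of genes, and DESeq2 called the same 2. The offset was not alike at all times. In LUX it was -0.67 and -0.70 in WT and -0.69 and -0.78 in eur1-11 at 24 and 48 h, and 0.12 and 0.05 at 96 h. In PRR5 it was -1.02 in WT at 24 h and 0.62 at 96 h. In FKF1 it was -2.38 in WT and -1.82 in eur1-11 at 0 h, and 0.61 and 1.26 at 96 h. The morning genes CCA1 and LHY were higher in replicate 3 in all 10 groups, by 0.38 and 0.41 in the fit, and 10 of 14 morning and day clock genes were called higher and 0 lower. The labels give no hour of harvest for any replicate, and its part in these offsets was not tested.

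**Figure D4:**
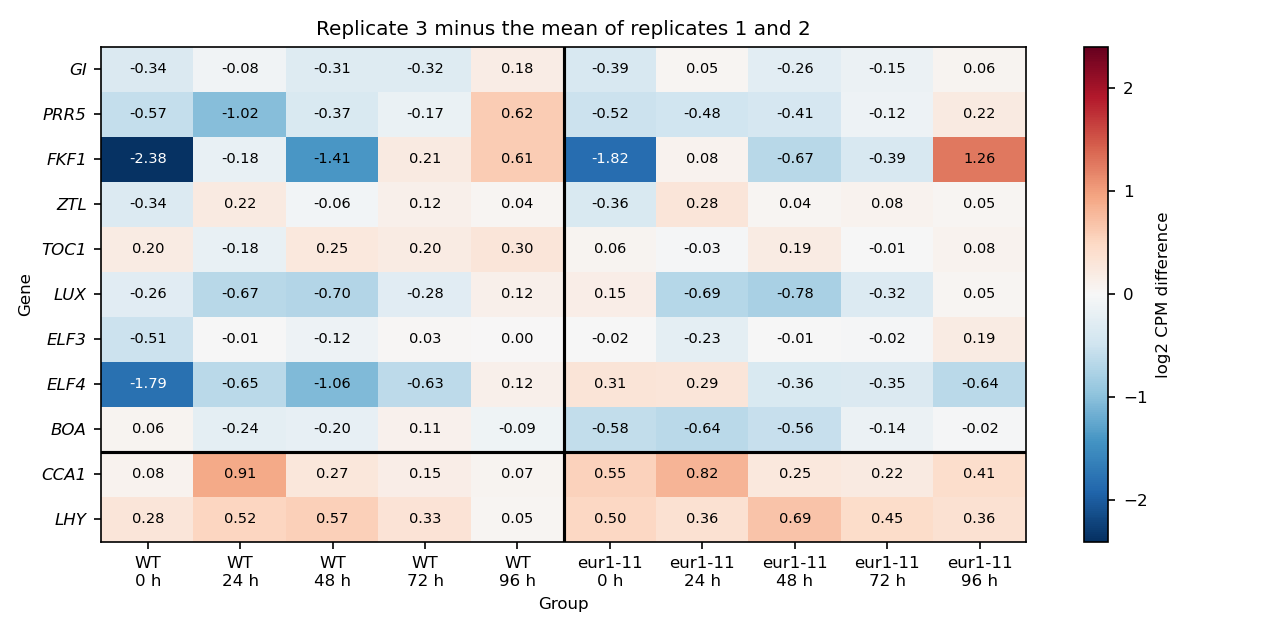
Log2 CPM of replicate 3 minus the mean of replicates 1 and 2 in each of the 10 groups, for the 9 evening clock genes and the morning genes CCA1 and LHY, with red for higher and blue for lower in replicate 3. CCA1 and LHY are higher in all 10 groups, LUX is at -0.67 to -0.78 in the 4 groups of 24 and 48 h, and PRR5 and FKF1 go from lower at 0 h to higher at 96 h.

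Levels can be compared between genes only per length. The annotation used in counting is not given, so the lengths used here may differ from those counted. LUX shares 698 and BOA 1679 exon bases with genes on the opposite strand. If reads there were left out as ambiguous, the values of LUX and BOA per kilobase are too low. Per kilobase of exon in the TAIR10.1 annotation, GI stood at 23.3 ± 3.13 CPM (SD, n = 3) in WT at 0 h, ZTL at 15.8 ± 2.12, TOC1 at 15.7 ± 1.97, PRR5 at 8.63 ± 1.84 and ELF3 at 5.07 ± 0.984. LUX followed at 2.26 ± 0.381, FKF1 at 1.57 ± 1.03, BOA at 0.751 ± 0.0613 and ELF4 at 0.512 ± 0.327 CPM per kilobase. By mean ± SD, the neighbours ZTL and TOC1, LUX and FKF1, FKF1 and BOA, and BOA and ELF4 did not differ beyond their spread. At 96 h in WT the order per kilobase was GI at 17.9 ± 1.4, TOC1 at 15.3 ± 1.88, ZTL at 12.1 ± 0.269, ELF3 at 10.4 ± 0.352, PRR5 at 5.65 ± 1.5, LUX at 4.49 ± 0.222, BOA at 1.14 ± 0.132, ELF4 at 0.886 ± 0.0717 and FKF1 at 0.885 ± 0.242 CPM. There GI and TOC1, PRR5 and LUX, and ELF4 and FKF1 did not differ beyond their spread, and ELF3 had passed PRR5. With coding length, an alternative chosen after seeing the data, LUX moved from rank 6 to rank 3 at 96 h in WT. Its annotated exons hold 3916 bases and its coding part 1073, whereas the annotated exons of PRR5 are coding sequence only. FKF1 and ELF4 were among the lowest 3 members in all 10 groups under both lengths.

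The morning genes give the other side of the loop. In WT, CCA1 was at 27.6, 24.7 and 27.6 CPM at 0 h, 7.33, 6.78 and 13.3 CPM at 24 h and 14.5, 14.9 and 15.5 CPM at 96 h. Its paralog LHY was at 11, 10.4 and 13 CPM, 19.6, 19.8 and 28.2 CPM and 28.4, 29 and 29.7 CPM at these times. The groups of 24 and 96 h did not overlap with 0 h, and at 24 h the paralogs had opposite signs under all 5 scalings. At 24 h in WT CCA1 fell by 1.59 ± 0.16 (SE) and LHY rose by 0.96 ± 0.11 (edgeR adjusted p = 1.61e-08 and 1.06e-07).

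A ratio within a library does not depend on scaling. The log2 ratio of GI to LHY was 3.12 ± 0.37 (SD, n = 3) in WT at 0 h, 0.83 ± 0.36 at 24 h, 0.47 ± 0.51 at 48 h, 0.91 ± 0.38 at 72 h and 1.41 ± 0.09 at 96 h. In eur1-11 it was 3.59 ± 0.56, 1.32 ± 0.18, 0.81 ± 0.55, 1.32 ± 0.35 and 1.73 ± 0.18. In both genotypes every later library lay below every 0 h library. The log2 ratio of TOC1 to CCA1 was 0.72 ± 0.24 in WT at 0 h and 2.19 ± 0.64 at 24 h, and 1.15 ± 0.29 and 2.49 ± 0.51 in eur1-11. At 24 h it was above 0 h without overlap in both genotypes, with replicate 3 the lowest at 24 h, and at 48 h it was 1.43 ± 0.04 and 1.41 ± 0.04.

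**Figure D5:**
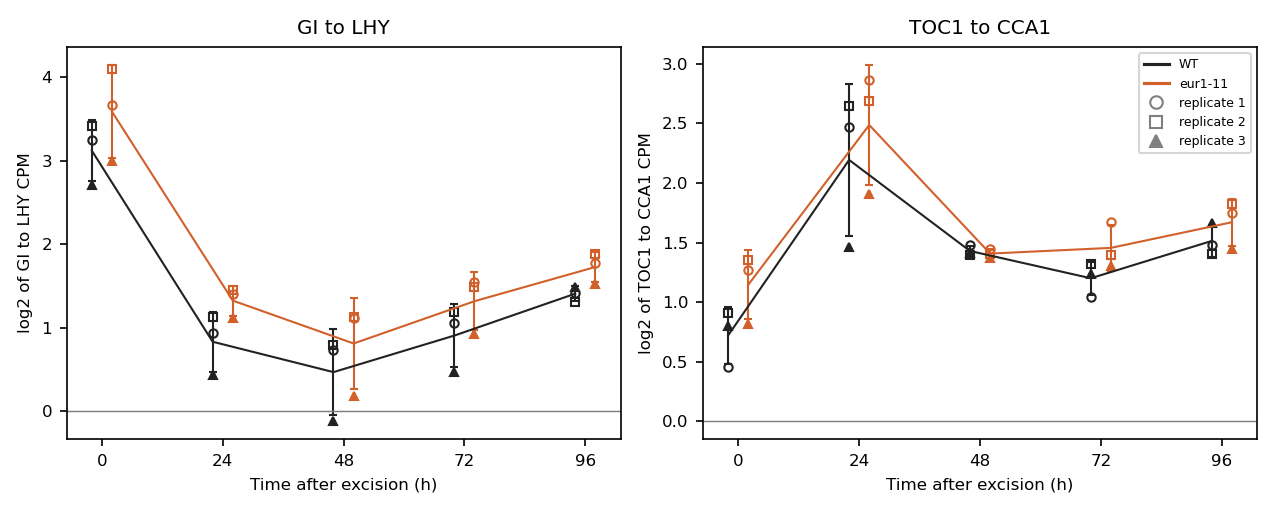
Log2 ratio of GI to LHY and of TOC1 to CCA1 in each library against hours after excision, with lines through the group means and bars of 1 SD (n = 3). In WT the ratio of GI to LHY goes from 3.12 at 0 h to 0.83 at 24 h, while that of TOC1 to CCA1 goes from 0.72 to 2.19.

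Of 14 morning and day clock genes, 3 higher and 10 lower were called at 24 h in WT, beside 35.9% and 32.1% of all tested genes. Their median log2 fold change there was -1.39, beside 0.07 for all tested genes. Over all times and both genotypes, 34.3 to 38.1% of genes were called higher against 0 h and 30.8 to 32.1% lower. The counts were 3 higher and 10 lower at 48 h, 3 higher and 9 lower at 72 h and 3 higher and 9 lower at 96 h. In eur1-11 they were 3 higher and 10 lower at 24 h, 3 higher and 10 lower at 48 h, 4 higher and 10 lower at 72 h and 4 higher and 10 lower at 96 h. RVE2, a MYB-related factor, was at 0.611, 0.612 and 0.852 CPM in WT at 0 h and 6.2, 7.84 and 5.98 CPM at 24 h. LNK2, a coactivator of evening genes, was at 86.2, 73.9 and 110.3 CPM and 13.7, 13.1 and 31.3 CPM. Neither pair of groups overlapped, and RVE2 rose by 3.29 and LNK2 fell by 2.28 on the log2 scale (edgeR test, adjusted p of 4.59e-08 and 6.09e-09). Between genotypes at 0 h, 1 gene of this list was called, beside 2.08% of all genes. It was LHY, lower in eur1-11 with a log2 value of -0.43 ± 0.11 (SE, edgeR adjusted p = 0.0469). Over the 5 times LHY was lower (-0.31) and RVE2 higher (0.47) in eur1-11 (edgeR adjusted p = 0.000277 and 0.038), beside 5.71% of all genes called.

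Of 10 partners and paralogs of the evening genes, 4 higher and 2 lower were called at 24 h in WT, beside 35.9% and 32.1% of all genes. Their median there was 0.28, beside 0.07 for all genes. The shares of all genes at the other times are those given for the members. The counts were 5 higher and 2 lower at 48 h, 7 higher and 2 lower at 72 h and 7 higher and 1 lower at 96 h, where the median was 1.85 beside 0.16. In eur1-11 they were 4 higher and 3 lower at 24 h, 6 higher and 3 lower at 48 h, 6 higher and 3 lower at 72 h and 7 higher and 3 lower at 96 h. CHE, a TCP factor that binds the CCA1 promoter, was at 121, 122 and 139 CPM in WT at 0 h and 11, 8.96 and 26.4 CPM at 24 h, and its log2 value fell by 3.12 (edgeR adjusted p = 3.05e-09). COR27, a regulator of the clock and of cold tolerance, was at 0.255, 0 and 0 CPM and 1.19, 1.49 and 0.735 CPM and was called higher (edgeR adjusted p = 8.82e-05). The groups did not overlap in either gene. Between genotypes at 0 h, 1 gene of this list was called, beside 2.08% of all genes. It was the ZTL paralog LKP2, higher in eur1-11 with a log2 value of 0.37 ± 0.09 (SE, edgeR adjusted p = 0.0447).

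Of 11 photoperiod and growth outputs, 9 passed the filter on low counts. In WT 3 higher and 4 lower were called at 24 h, 3 higher and 4 lower at 48 h, 3 higher and 5 lower at 72 h and 3 higher and 5 lower at 96 h, with a median of -0.50 at 24 h beside 0.07 for all genes. In eur1-11 there were 3 higher and 4 lower at 24 h, 3 higher and 3 lower at 48 h, 3 higher and 3 lower at 72 h and 4 higher and 3 lower at 96 h. Of all genes, 34.3 to 38.1% were called higher and 30.8 to 32.1% lower in these comparisons. The number called is therefore no result about these outputs. PIF4, a growth-promoting factor repressed by the evening complex, was at 92.6, 105 and 82.3 CPM in WT at 0 h and 12.9, 8.43 and 26.9 CPM at 24 h. CDF1, a repressor of CONSTANS that FKF1 and GI target, was at 36.5, 29.1 and 23.4 CPM and 3.82, 3.76 and 10.9 CPM. In both the groups did not overlap and replicate 3 was the highest library at 24 h, and their log2 values fell by 2.65 and 2.34 (edgeR adjusted p = 5.94e-07 and 5.66e-07).

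For each member the 2 genes with the most similar pattern were found by Pearson's r of log2 CPM over the 30 libraries, which share 5 times and 3 replicate numbers. PRR5 and GI were each other's nearest gene (r = 0.940), followed by TLP7 (0.912) for PRR5 and AT3G16560 (0.937) for GI. ZTL lay nearest to VTC2 (0.960), an enzyme of ascorbate synthesis, and AT5G06440 (0.945), and ELF3 to SKIP1 (0.953) and AT3G03990 (0.928). TOC1 lay nearest to SRO1 (0.896) and FRS2 (0.856), BOA to AT2G18750 (0.900) and AT1G09740 (0.886), and FKF1 to AT5G49015 (0.884) and ABF1 (0.875). LUX lay nearest to ABCG34 (0.871) and CLE12 (0.841), and ELF4, with few reads, to AT4G38870 (0.773) and AT1G53180 (0.753). The member nearest to FKF1 was PRR5 at rank 4 of all genes (r = 0.846), whereas the member nearest to TOC1 was PRR5 at rank 1846 (r = 0.553). These values depend on the 0 h libraries. GI and ELF3 had r = 0.066 over all 30 libraries and r = 0.921 over the 24 libraries after 0 h.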

How the data were processed

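Petiole regions of 10 genotype-by-time groups (30 libraries) were sequenced. The authors used FastQC for quality, STAR for alignment (TAIR10) and HTSeq for counting per gene, and deposited raw counts. The sources used here do not give versions, annotation release or strand setting. Reads on no gene (3.58 to 6.76%) and ambiguous reads (2.43 to 3.45%) were left out. Of 33602 identifiers, 32835 matched the RefSeq annotation of TAIR10.1, the source of names, lengths and promoters.

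Counts were tested with edgeR 4.0.16 in R 4.3.3 (TMM, filterByExpr by group, glmQLFit, glmQLFTest) with 1 term per group and the replicate number as a block, as in the study's methods. P-values were adjusted over 21472 genes by Benjamini-Hochberg and called under 0.05, and the SE is the absolute log2 fold change over the square root of F. The script was tested on simulated data. Alternatives were DESeq2 1.42.0, other scalings, no filter, no block, a block within each time, and fits without a replicate or a library.

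Over 16257 genes, deviations from the group means correlated by over 0.1 in 15 of 15 equal-numbered pairs of the genotypes at a time (mean 0.518, against -0.211 in unequal pairs), so the numbers were taken as pairing samples within a time. Across times, 45 of 120 equal-numbered pairs were over 0.1 (mean 0.0993). The main fit nevertheless keeps 1 block over all times, as in the study's methods. The block within each time, which follows the pairing found, is given as an alternative for the comparisons between genotypes only. The tests against 0 h and among later times take no account of a pairing within each time.

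The members and gene lists were chosen with earlier results of these data known. Named genes are the members, EAR1, CCA1, LHY, the 2 genes of each list with the largest absolute fold change among those called at 24 h in WT, and the 2 genes nearest each member by Pearson's r of log2 CPM (prior count 2). The genes overlapping LUX and BOA, and LKP2, are named outside this rule, after their values were seen.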

Additional observations from a re-analysis of the deposited data

How the results depend on the processing

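Scaling had the widest effect. With scaling by total counts, log2 fold changes against 0 h turned from below to above 0, including some not called under either scaling. PRR5 was 0.58 and 1.05 in WT at 72 and 96 h, and 0.81 and 1.08 in eur1-11 at 72 and 96 h. TOC1 was 0.97, 1.33, 1.38 and 1.57 in WT at 24, 48, 72 and 96 h, and 0.63, 0.73, 0.93 and 1.15 in eur1-11 at 24, 48, 72 and 96 h. GI was 0.40, 0.93 and 1.25 in WT at 48, 72 and 96 h, and 0.36, 0.84 and 1.18 in eur1-11 at 48, 72 and 96 h. LUX was 1.25 in eur1-11 at 48 h. BOA was 1.02 in WT at 24 h, and 0.88 in eur1-11 at 24 h. ELF3 was 0.99 in eur1-11 at 24 h. ELF4 was 0.72 in WT at 48 h, and 1.06 in eur1-11 at 48 h. FKF1 was 0.25 and 0.86 in WT at 72 and 96 h, and 1.11 in eur1-11 at 72 h. ZTL was 0.44, 0.86, 1.18 and 1.22 in WT at 24, 48, 72 and 96 h, and 0.50, 1.03, 1.23 and 1.39 in eur1-11 at 24, 48, 72 and 96 h. With scaling by nuclear counts fewer turned. PRR5 was 0.0200 in WT at 96 h, and 0.0114 and 0.22 in eur1-11 at 72 and 96 h. TOC1 was 0.37, 0.48, 0.42 and 0.55 in WT at 24, 48, 72 and 96 h, and 0.12, 0.0117, 0.14 and 0.29 in eur1-11 at 24, 48, 72 and 96 h. GI was 0.22 in WT at 96 h, and 0.0464 and 0.31 in eur1-11 at 72 and 96 h. LUX was 0.54 in eur1-11 at 48 h. BOA was 0.42 in WT at 24 h, and 0.36 in eur1-11 at 24 h. ELF3 was 0.48 in eur1-11 at 24 h. ELF4 was 0.36 in eur1-11 at 48 h. FKF1 was 0.30 in eur1-11 at 72 h. ZTL was 0.00454, 0.21 and 0.20 in WT at 48, 72 and 96 h, and 0.31, 0.43 and 0.52 in eur1-11 at 48, 72 and 96 h. These scalings move the median gene by 1.08 to 1.76 and 0.57 to 0.74, and relative to it the signs of all 47 called changes held. That follows from shifting all genes nearly alike and is no test of the calls. FKF1 in eur1-11 at 96 h was -0.75 without replicate 3.

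Counts of called members moved with scaling to 4 in WT at 72 h against 0 h (nuclear counts), 3 in WT at 96 h (upper quartile), 9 in eur1-11 at 96 h (total counts) and 9 in WT among the later times (total counts). Between genotypes at 0 h the count was 1 with nuclear counts, 1 with the upper quartile and 1 with no filter. For replicate 3 it was 1 with nuclear counts and 1 with no filter. Over the 5 times it was 1 with total counts and 1 by DESeq2. The shares of all genes called under these settings are not given here, so these counts are no result about the members.

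With no replicate block, 0 members were called between genotypes at 0 h, and LUX in WT at 48 h was not called. With the replicate block within each time the counts were 4 at 0 h, 1 at 72 h and 4 over the 5 times, and no other count of members changed by over 1.5 times with either block. The shares of all genes called with that block at 72 h and over the 5 times are not given here.

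Leaving out a replicate or a library gave 4 to 6, 4 to 6, 4 to 7 and 2 to 7 called members in WT at 24, 48, 72 and 96 h, and 4 to 6, 3 to 6, 5 to 9 and 3 to 9 in eur1-11. Among the later times the range was 1 to 7 in WT and 2 to 8 in eur1-11. Between genotypes it was 0 to 2 at 0 h, 0 to 0 at 24 h, 0 to 0 at 48 h, 0 to 2 at 72 h, 0 to 1 at 96 h and 0 to 5 over the 5 times, and 0 to 1 for the interaction. The shares of all genes called in these fits are not given here, so the ranges are no result about the members. ELF4, with 1 to 37 reads a library, is limited by depth. The causes of these changes were not tested.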
